A study of Rattus norvegicus with 22 samples.

Results

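The expression of 10 genes of the brain endothelium and its growth factors was described in rat hippocampus after traumatic brain injury (TBI): Cldn5, Ocln, Tjp1, Pecam1, Cdh5, Flt1, Kdr, Vegfa, Tek and Angpt2. They were taken by name from a table of read counts for 17172 genes, and all 10 were present and all 10 passed the filter on low counts that left 12875 genes for testing. The table holds mRNA sequencing of the right hippocampus, the side of the injury, in 14 adult male Sprague-Dawley rats. Injured rats received a lateral fluid percussion, a brief pulse of fluid pressure on the exposed dura over the right hemisphere, and were examined after 1 day (TBI day 1, n = 4) or 14 days (TBI day 14, n = 4). Sham rats were anesthetized and had the craniectomy but received no pulse (sham day 1, n = 2, and sham day 14, n = 4). All groups therefore shared the surgery, and the sham rats at day 1 were themselves 1 day past an operation. Each library came from bulk tissue, in which fewer cells of a type and less RNA per cell cannot be told apart.

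Brain capillaries are lined by endothelial cells sealed to one another by tight junctions, and this seal is the blood-brain barrier. Cldn5 encodes claudin-5, the main sealing claudin of brain endothelium, Ocln encodes occludin, and Tjp1 encodes ZO-1, a scaffold that ties both to the cytoskeleton. Ocln and Tjp1 are also made by other cells, among them the epithelium of the choroid plexus and, for Tjp1, astrocytes and neurons. Pecam1 and Cdh5 (VE-cadherin) encode adhesion proteins of endothelial junctions. Vegfa encodes vascular endothelial growth factor A, which in brain comes largely from astrocytes and other parenchymal cells, loosens the barrier and drives sprouting through its receptor Kdr (VEGFR2), while Flt1 (VEGFR1) binds it tightly and, in its soluble form, holds it away from Kdr. Tek encodes Tie2, the endothelial receptor whose ligand angiopoietin-1 stabilizes vessels. Angpt2 encodes angiopoietin-2, which endothelial cells release on activation and which counters that stabilizing signal.

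Promoter sequence is shown for Vegfa and its receptors Flt1 and Kdr, because Vegfa was the gene called at day 14 and RefSeq windows were found for all of this ligand and receptor set. The sequences are RefSeq's, on build GRCr8, whereas the reads were aligned to rn5, so no position of a read is implied. Each line gives the 250 bases before the annotated start, 5′ to 3′ on the + strand, at chr9:22452604-22452853 for Vegfa, chr12:12333180-12333429 for Flt1 and chr14:32571813-32572062 for Kdr. Capitals mark, on either strand, the core GGAAG bound by ETS factors. They also mark the GC box GGGCGG, on either strand.
Vegfa: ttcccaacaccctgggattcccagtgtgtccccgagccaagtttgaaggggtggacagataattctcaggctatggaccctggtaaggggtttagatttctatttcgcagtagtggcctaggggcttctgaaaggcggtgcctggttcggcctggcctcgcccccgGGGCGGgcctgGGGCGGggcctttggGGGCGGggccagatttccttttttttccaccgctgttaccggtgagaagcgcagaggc
Flt1: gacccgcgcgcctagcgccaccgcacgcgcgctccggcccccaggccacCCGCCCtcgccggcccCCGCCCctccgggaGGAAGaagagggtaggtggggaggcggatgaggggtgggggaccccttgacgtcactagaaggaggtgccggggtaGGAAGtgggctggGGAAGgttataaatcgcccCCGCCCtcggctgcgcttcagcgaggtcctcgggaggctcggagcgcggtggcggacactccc
Kdr: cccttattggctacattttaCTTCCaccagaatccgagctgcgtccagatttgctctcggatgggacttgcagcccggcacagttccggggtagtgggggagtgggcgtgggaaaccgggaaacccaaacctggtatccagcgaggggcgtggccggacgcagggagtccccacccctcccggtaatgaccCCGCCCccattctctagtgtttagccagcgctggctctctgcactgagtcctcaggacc
Erg and Ets1, factors that keep endothelial genes active, bind the ETS core. The Flt1 stretch held 3 ETS cores and 3 GC boxes, and the Kdr stretch held 1 of each. The Vegfa stretch held 3 GC boxes and 0 ETS cores; a second Vegfa start in the table is not shown. RefSeq windows of 300 bases (250 before and 50 after a start) were found for 6 of the 10 genes, 7 windows in all: Cldn5, Ocln, Tjp1, Flt1, Kdr and Vegfa. All motifs were searched on both strands. The ETS core was in 4 of the 7 and in 70.1% of all 33469 windows. The GC box was in 4 of the 7, against 33.1% of all windows. The hypoxia response core ACGTG was in 0 of the 7 and in 19.3% of all windows, which says only that these letters are not in these windows. The SOX core ACAAT was in 1 of the 7 and in 33.7% of all windows. The TATA box was searched as TATAAA and was in 1 of the 7 and in 14.2% of all windows.

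Total counts ran from 15065540 to 23743703 per library. Levels are given as CPM, counts scaled to a common library size with TMM factors, and since they are not divided by gene length they are compared between groups and not between genes. Endothelial cells were represented in every library: 19 marker genes of endothelial identity, none of them among the 10, summed to 423 and 578 CPM in the sham day 1 libraries and to between 457 and 647 CPM in those of sham day 14. The TBI day 1 libraries had sums from 872 to 1274 CPM, and the TBI day 14 libraries from 402 to 558 CPM. Among these markers, Cd34 was at 0 counts in both sham groups and reached at most 6 counts elsewhere. The summed endothelial level in TBI day 1 thus lay above that of every other group. Markers of the choroid plexus, a tissue beside the hippocampus whose epithelium makes Ocln and Vegfa, set 3 libraries apart: their 18 genes summed to 11387 CPM in sham day 1 replicate 1, 2117 in TBI day 14 replicate 2 and 8856 in TBI day 14 replicate 3, and to between 147 and 256 CPM in the other 11. Ttr, the transthyretin of choroid epithelium, ran from 3.23 to 7579 CPM within sham day 1 alone, while Otx2 was at 0 in all libraries. Microglia and macrophage markers (14 genes) summed to between 416 and 720 CPM in the 6 sham libraries, against 1122 to 1538 CPM 1 day after injury and 1245 to 2244 CPM after 14 days. Prox1, a marker of granule neurons of the dentate gyrus, was present in all libraries, at 8.04 CPM or more.

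**Figure D1:**
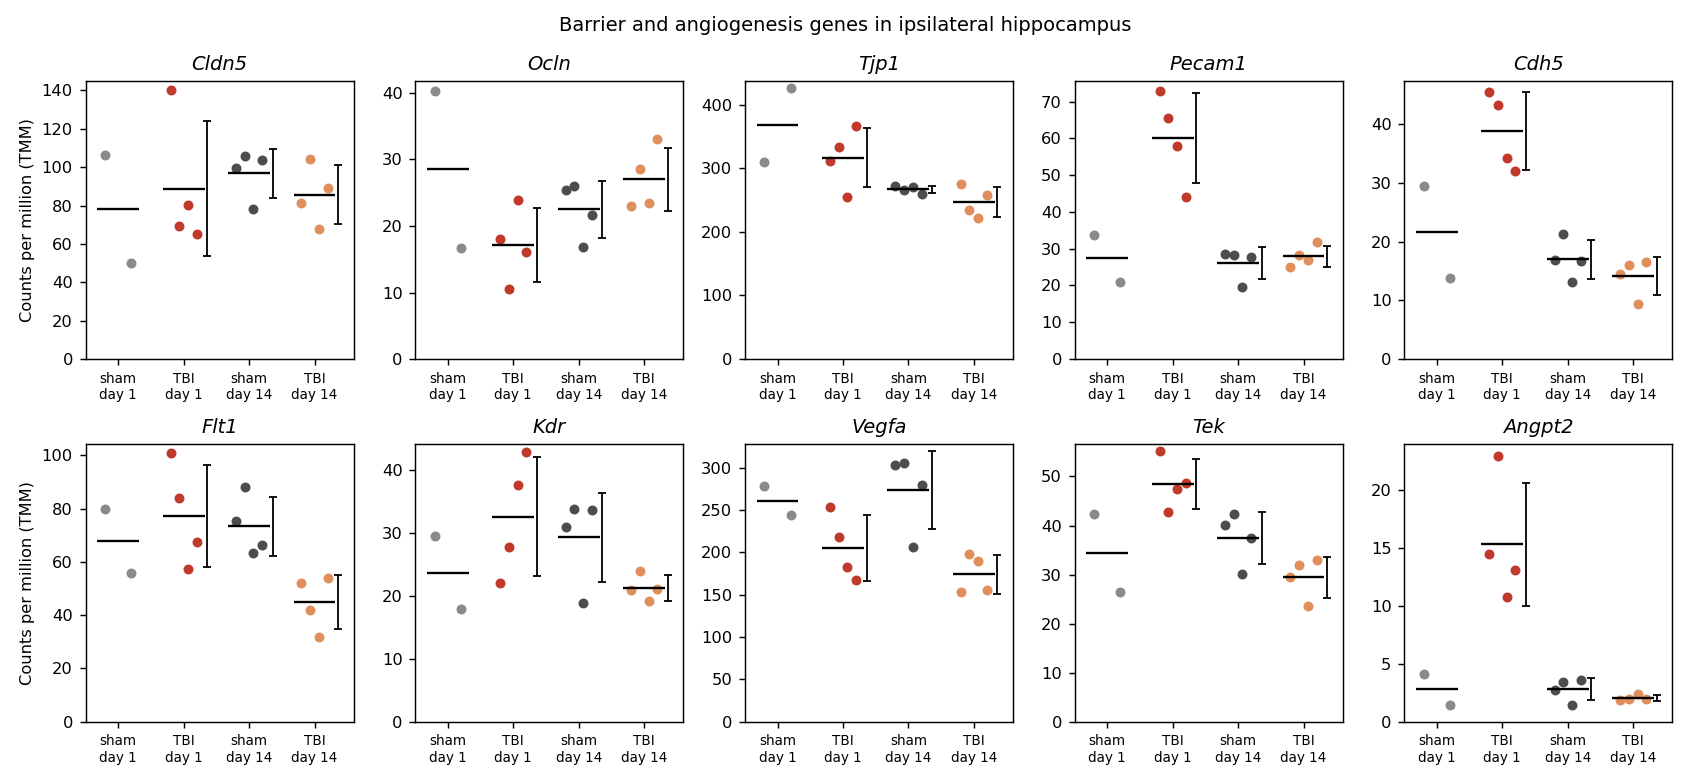
Level of each of the 10 genes in every library, in CPM after TMM scaling (vertical axes, from 0), by group (horizontal axis). Points are rats, horizontal bars are group means and vertical bars are SDs of the groups of 4. Angpt2, Pecam1, Cdh5 and, narrowly, Tek in TBI day 1 lie above all other libraries. Of all tested genes, 16.7% lie wholly above the sham day 1 libraries in TBI day 1.

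The first question was which of the 10 genes differed between injured and sham rats 1 day after injury. Angpt2 and Pecam1 rose, by 5.53-fold and 2.20-fold, and no gene fell past the test. Thus 2 of 10 genes were called higher by edgeR, against 11.2% of all tested genes, and 0 of 10 lower, against 7.93%. At an unadjusted p under 0.05, 4 of the 10 were higher and 1, Ocln, lower, and DESeq2 called 3 higher and 0 lower. Shares of all tested genes at an unadjusted p or with DESeq2 are not given here or below, so such counts have no background. The 10 log2 fold changes had a median of 0.32, and those of all tested genes a median of -0.02. For 4 of the 10, Angpt2, Pecam1, Cdh5 and Tek, every TBI library lay above both sham libraries, which held for 16.7% of all tested genes; for 0 of the 10 did every TBI library lie below, against 14.1%. Leaving out the 3 libraries rich in choroid plexus markers leaves 1 sham rat at day 1. The log2 differences were then 1.48 for Cdh5, 0.86 for Tek, 0.46 for Flt1, 0.021 for Ocln, -0.26 for Vegfa and -0.45 for Tjp1.

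Of the ligand Angpt2 and its receptor Tek, only Angpt2 passed the test at day 1, and whether the 2 genes' responses differ was not tested. Angpt2 was at 4.10 and 1.48 CPM in the sham day 1 libraries and at 14.5, 22.9, 10.8 and 13.1 CPM in the TBI day 1 libraries. The groups did not overlap, and the lowest injured rat was more than the highest sham rat of either day. The log2 fold change was 2.47 ± 0.44 (SE), a 5.53-fold rise with a 95% interval of 2.87 to 10.7, at an adjusted p of 0.00167 (edgeR). These levels rest on 32 and 76 counts in the sham libraries and 235 to 565 in the injured ones. Tek, the Tie2 receptor on which angiopoietin-2 acts, was at 42.3 and 26.4 CPM in sham day 1 and at 55.1, 42.7, 47.4 and 48.6 CPM in TBI day 1. Its groups touched without overlapping, and its log2 difference of 0.50 ± 0.20 did not pass (adjusted p = 0.0985, edgeR). Without sham day 1 replicate 1, the library rich in choroid plexus markers, the Tek difference was 0.87 with an adjusted p of 0.0175 (edgeR).

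The adhesion genes of endothelial junctions were also higher 1 day after injury. Pecam1 was at 33.7 and 21.0 CPM in sham day 1 and at 72.9, 65.6, 57.9 and 44.2 CPM in TBI day 1, so that every injured rat exceeded both sham rats. It rose by 1.14 ± 0.23 on the log2 scale, 2.20-fold with a 95% interval of 1.56 to 3.11 (adjusted p = 0.00398, edgeR). Pecam1 is also made by leukocytes and platelets. The microglia and macrophage sums were higher in the injured libraries of both days, and the red cell and platelet markers summed to 202 and 406 CPM in sham day 1 and to between 333 and 811 CPM in TBI day 1. With the microglia score as a covariate in edgeR the Pecam1 difference was 0.39 (adjusted p = 0.879), but score and injury cannot be told apart because the microglia sums of injured and sham rats do not overlap. Cdh5, the cadherin that joins endothelial cells to each other, was at 29.5 and 13.8 CPM in sham day 1 and at 45.6, 43.4, 34.2 and 32.1 CPM in TBI day 1. Its groups did not overlap, yet the log2 difference of 0.84 ± 0.30 missed the threshold (adjusted p = 0.0588, edgeR). Both genes hung on the pair of sham libraries: without sham day 1 replicate 2 the Pecam1 difference was 0.84 with an adjusted p of 0.0832, and without sham day 1 replicate 1 the Cdh5 difference was 1.49 with an adjusted p of 0.00750 (edgeR). The Pecam1 call was also lost when only the libraries of day 1 were fitted (adjusted p = 0.0599, edgeR), and Cdh5 passed with limma-voom (adjusted p = 0.0302) and DESeq2 (adjusted p = 0.0268).

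Vegfa and its receptors showed no difference past the test at day 1. Vegfa was at 278 and 244 CPM in sham day 1 and at 254, 218, 183 and 167 CPM in TBI day 1, with the highest injured rat between the sham rats. The log2 difference was -0.35 ± 0.19, with a 95% interval of -0.76 to 0.06 (adjusted p = 0.216, edgeR). Kdr, the signaling receptor, was at 29.5 and 17.9 CPM in sham and at 22.0, 27.8, 37.7 and 43.0 CPM in injured rats. Its groups overlapped, and the interval of its log2 difference (-0.15 to 1.07) held both no change and an increase as large as that of Cdh5. Flt1, the receptor that also acts as a trap for Vegfa, was at 80.0 and 55.8 CPM in sham and at 101, 84.0, 57.3 and 67.3 CPM in injured rats, with a log2 interval of -0.34 to 0.72.

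The tight junction genes varied between the sham day 1 libraries more than between the groups. Cldn5 was at 106 and 50.3 CPM in sham day 1 and at 140, 69.2, 80.5 and 65.4 CPM in TBI day 1, and its log2 interval ran from -0.49 to 0.85. Ocln was at 40.3 and 16.7 CPM in sham day 1 and at 18.1, 10.5, 23.9 and 16 CPM in TBI day 1. The higher sham value belonged to the library rich in choroid plexus markers, and the log2 difference of -0.73 (adjusted p = 0.123, edgeR) became 0.03 without that library and -1.24 (adjusted p = 0.0341, edgeR) without the other sham library. The direction of Ocln at day 1 thus rested on which sham rat was used. Tjp1 was at 309 and 427 CPM in sham day 1 and at 311, 334, 256 and 367 CPM in TBI day 1, with a log2 interval of -0.56 to 0.13. Transcripts of the tight junction proteins therefore gave no call at 1 day, and changes within these intervals were not detectable with a pair of sham rats.

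**Figure D2:**
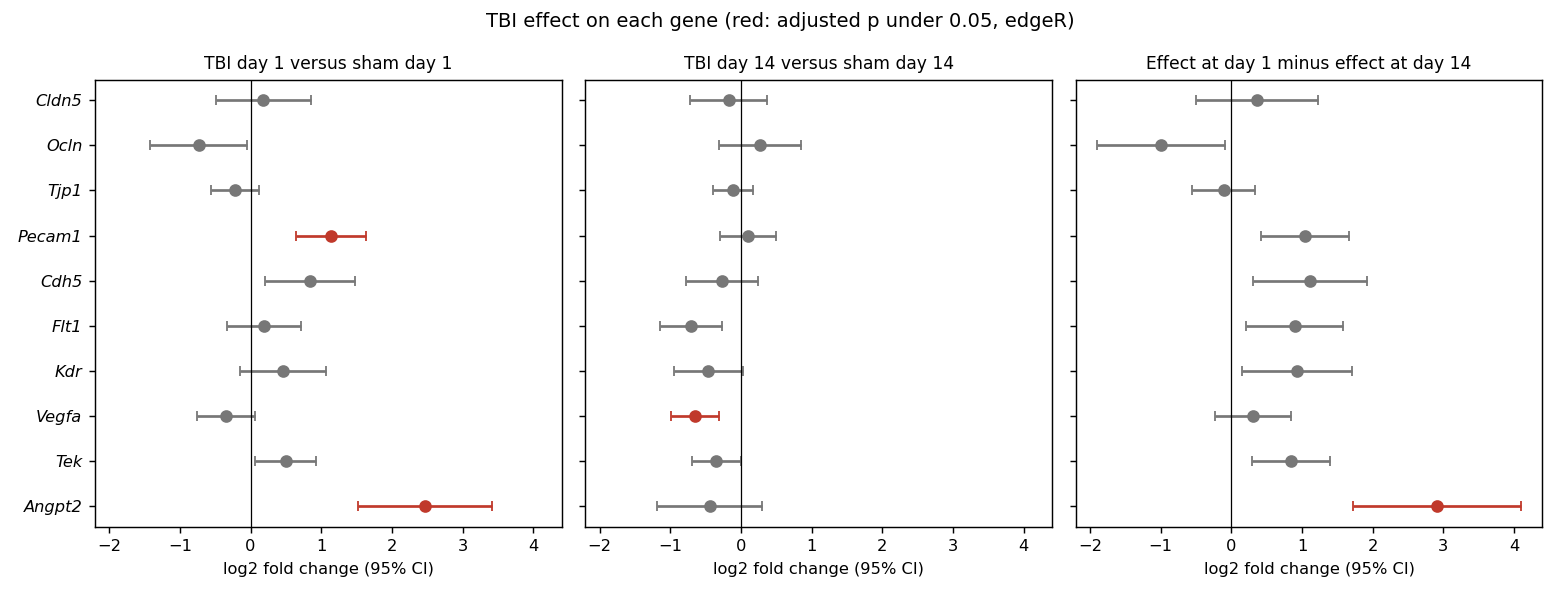
Log2 fold change of each of the 10 genes with its 95% confidence interval (horizontal axis) in the edgeR fit for TBI day 1 versus sham day 1 (left), TBI day 14 versus sham day 14 (middle) and the difference between these effects (right). Red marks an adjusted p under 0.05: Angpt2 (2.47) and Pecam1 (1.14) at day 1, Vegfa (-0.65) at day 14 and Angpt2 (2.91) for the difference.

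At 14 days the question was which differences remained or appeared. Only Vegfa passed the test, and it fell: 1 of 10 genes was called lower by edgeR, against 0.365% of all tested genes, and 0 of 10 higher, against 4.07%. At an unadjusted p under 0.05, 2 of the 10 were lower and 0 higher, and DESeq2 called the same numbers. Vegfa was at 303, 305, 207 and 280 CPM in sham day 14 and at 153, 198, 189 and 156 CPM in TBI day 14. All injured rats lay below all sham rats, though the lowest sham rat came close to the highest injured one. The fall was 0.635-fold with a 95% interval of 0.502 to 0.804 (log2 -0.65 ± 0.16, adjusted p = 0.0267, edgeR). The 2 injured libraries rich in choroid plexus markers held the higher Vegfa values, 198 and 189 CPM, against 153 and 156 CPM in the other injured rats. Without those libraries and sham day 1 replicate 1 the difference was -0.80 with an adjusted p of 0.0534, so that 0 of the 10 genes were called. Leaving out sham day 14 replicate 1, 2 or 4, or TBI day 14 replicate 1 or 4, raised the adjusted p to between 0.0717 and 0.108 (edgeR).

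The receptors of Vegfa were lower beside it without passing the test. Flt1 was at 75.4, 88.1, 63.4 and 66.5 CPM in sham day 14 and at 52.1, 42.0, 31.8 and 53.8 CPM in TBI day 14. No injured rat reached the lowest sham rat, and the log2 difference was -0.71 ± 0.20 (0.612-fold, adjusted p = 0.0679, edgeR). Vegfa and Flt1 were the 2 of 10 genes whose injured libraries all lay below the sham libraries at day 14, against 5.86% of all tested genes; 0 of 10 lay above, against 9.13%. Without the 3 libraries rich in choroid plexus markers the Flt1 difference was -0.45 (adjusted p = 0.540, edgeR). Flt1 passed with DESeq2 (adjusted p = 0.0191) and when only the day 14 libraries were fitted (adjusted p = 0.0226, edgeR). Kdr was at 31.0, 33.8, 18.9 and 33.6 CPM in sham day 14 and at 21.0, 24.0, 19.1 and 21.1 CPM in TBI day 14. Its injured values sat together just above the lowest sham rat, and the log2 difference of -0.46 ± 0.23 had an adjusted p of 0.419 (edgeR).

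None of the other 7 genes differed past the test at 14 days, the increases of day 1 included. Angpt2 was at 2.75, 3.42, 1.46 and 3.59 CPM in sham day 14 and at 1.86, 1.93, 2.43 and 2.01 CPM in TBI day 14, back within the sham range, with a log2 interval of -1.19 to 0.30. Pecam1 was at 28.6, 28.4, 19.6 and 27.9 CPM in sham and at 25.1, 28.2, 26.8 and 31.7 CPM in injured rats. Its log2 difference of 0.10 had an interval of -0.29 to 0.49, which leaves out a change of the size seen at day 1. Cdh5 ran from 13.1 to 21.3 CPM in sham and from 9.44 to 16.5 CPM in injured rats, and Tek from 30.0 to 42.4 and from 23.5 to 32.9 CPM. The log2 differences were -0.27 for Cdh5 and -0.35 for Tek, with adjusted p-values of 0.769 and 0.379 (edgeR). Among the tight junction genes, Cldn5 ran from 77.9 to 106 CPM in sham and from 68.0 to 104 CPM in injured rats, and Ocln from 16.9 to 26.0 and from 23.0 to 33.0 CPM. Tjp1 varied little, from 259 to 272 CPM in sham and from 222 to 275 CPM in injured rats. The log2 intervals were -0.72 to 0.37 for Cldn5, -0.31 to 0.84 for Ocln and -0.39 to 0.17 for Tjp1. Over the 10 genes the median log2 difference at day 14 was -0.31, and over all tested genes it was -0.03.

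Whether the injury effect itself differed between the days was tested as an interaction. Angpt2 was the 1 gene of 10 called, with an effect larger at day 1 by 2.91 ± 0.55 on the log2 scale (adjusted p = 0.0108, edgeR); 2.24% of all tested genes were called in this direction and 1.44% in the other, where 0 of the 10 were called (1 at an unadjusted p under 0.05, 0 with DESeq2). Differences in the same direction were 1.04 for Pecam1 (adjusted p = 0.0640), 0.84 for Tek (0.0865), 1.11 for Cdh5 (0.118), 0.90 for Flt1 (0.140) and 0.92 for Kdr (0.179), all by edgeR. Ocln pointed the other way, with -1.0 (adjusted p = 0.208, edgeR). Without sham day 1 replicate 1, Pecam1, Cdh5 and Tek joined Angpt2 (log2 1.41, 1.76 and 1.22, adjusted p = 0.0248, 0.0217 and 0.0231, edgeR).

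Because only 2 sham rats were examined at day 1, TBI day 1 was also set against sham day 14, the baseline the study used for its trajectories. This comparison shares its injured libraries with the day 1 comparison and its sham libraries with the day 14 comparison, and it mixes injury with time after surgery. Angpt2 (log2 2.45 ± 0.34, adjusted p = 4.86e-05), Pecam1 (1.20 ± 0.18, adjusted p = 0.000116) and Cdh5 (1.19 ± 0.24, adjusted p = 0.000965) were higher and Vegfa (-0.42 ± 0.16, adjusted p = 0.0437) was lower by edgeR. That is 3 of 10 higher, against 25% of all tested genes, and 1 of 10 lower, against 21%, so both counts were near the background or below it. Tek, at 0.37 ± 0.16, did not pass (adjusted p = 0.0758, edgeR). The Vegfa call was lost, with adjusted p-values from 0.0505 to 0.120, when any 1 of these libraries was left out: replicate 2, 3 or 4 of TBI day 1, replicate 1, 2 or 4 of sham day 14, or replicate 1 or 4 of TBI day 14 (edgeR). The sham groups themselves gave 0 of 10 calls in either direction by edgeR, against 11.3% of tested genes higher and 7.88% lower in sham day 1. At an unadjusted p under 0.05 only Tjp1 differed, higher in sham day 1 by 0.47 ± 0.16 on the log2 scale (adjusted p = 0.0535, edgeR); it passed with DESeq2 (adjusted p = 0.0323) and, with edgeR, without sham day 1 replicate 1 (adjusted p = 0.0229) or without TBI day 1 replicate 1, 3 or 4 (0.0387 to 0.0430).

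Between the injured groups, 7 of 10 genes were lower at day 14 than at day 1 by edgeR, against 21.9% of all tested genes, and 0 of 10 higher, against 17.6%. In the higher direction 1 gene, Ocln, had an unadjusted p under 0.05, and DESeq2 called 1. Angpt2 fell by 2.89 on the log2 scale to 0.135-fold (adjusted p = 2.81e-05, edgeR). Cdh5 fell by 1.46 (adjusted p = 0.000309), Pecam1 by 1.10 (0.000339), Flt1 by 0.78 (0.00708) and Tek by 0.72 (0.00319), with no overlap between the injured groups for any of these (edgeR). Kdr fell by 0.62 (adjusted p = 0.0440) and Tjp1 by 0.36 (adjusted p = 0.0424) with overlapping groups (edgeR). Ocln went the other way, from 10.5 to 23.9 CPM at day 1 to 23.0 to 33.0 CPM at day 14, at an adjusted p of 0.0672 (edgeR). The Kdr call was lost when replicate 3 or 4 of TBI day 1, replicate 1, 2 or 4 of sham day 14 or any 1 of the 4 TBI day 14 libraries was left out, with adjusted p-values up to 0.139 (edgeR). The Tjp1 call was lost when replicate 2 or 4 of TBI day 1, any 1 of the 4 sham day 14 libraries or replicate 2, 3 or 4 of TBI day 14 was left out, with adjusted p-values up to 0.150 (edgeR). Without the 3 libraries rich in choroid plexus markers, Flt1 (-0.52, adjusted p = 0.102), Kdr and Tjp1 were not called and 4 genes were (edgeR). Kdr was also not called with limma-voom (adjusted p = 0.0656) or with the replicate number as a block (0.0639, edgeR). Tjp1 was not called with that block or with other settings of edgeR (adjusted p from 0.0517 to 0.136). With the mean of the endothelial list as a covariate, Pecam1, Cdh5, Flt1, Kdr and Tek were not called (adjusted p from 0.127 to 0.746, edgeR). The endothelial sums of the injured groups did not overlap, with 872 to 1274 CPM at day 1 and 402 to 558 CPM at day 14. This covariate and the day therefore cannot be told apart, and the lost calls decide nothing.

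The endothelial markers as a whole were higher in TBI day 1. Each gene was therefore also expressed as its log2 CPM minus the mean log2 CPM of the endothelial identity list in the same library. That mean took all 19 genes of the list that were found, Cd34 included. On this scale Angpt2 remained higher in injured rats at day 1, running from -1.16 to -0.02 against -2.86 and -2.05 in sham day 1, a mean difference of 1.71. Pecam1 ran from 1.08 to 1.49 against 0.88 and 0.96, a difference of 0.34. For Cdh5 the groups overlapped, with 0.50 to 0.89 against 0.28 and 0.77, a difference of 0.11. Vegfa was lower, from 2.91 to 3.22 in injured rats against 4.00 and 4.41 in sham rats (difference -1.17), as did Ocln (difference -1.47), Tjp1 (-1.02) and Flt1 (-0.63), again without overlap. Of these, Flt1 had been higher on the plain scale and the others lower. Thus 2 of 10 genes lay wholly above the sham day 1 libraries, against 4.94% of all tested genes on this scale, and 4 of 10 below, against 56.3%. With 4 against 2 rats an exact permutation test cannot go below p = 0.133, so none of these differences at day 1 could pass. With the mean of the endothelial list as a covariate in edgeR instead, neither Angpt2 (log2 1.71, adjusted p = 0.0649) nor Pecam1 (0.37, adjusted p = 0.266) was called higher at day 1, and Cldn5 (-1.01, adjusted p = 0.00609), Ocln (-1.59, adjusted p = 0.0175) and Vegfa (-0.89, adjusted p = 0.0250) were called lower. The endothelial sums of injured and sham rats did not overlap at day 1, so that this covariate and the injury cannot be told apart there. Against sham day 14, where the smallest possible two-sided p is 0.0286, 7 of the 10 genes reached it in exact permutation tests, which needs groups that do not overlap. Of these, 3 of 10 were higher, against 6.08% of all tested genes, and 4 of 10 lower, against 42.1%, so the share lower was that of the background. Angpt2 (1.88), Pecam1 (0.65) and Cdh5 (0.65) were above the sham libraries relative to the endothelial list, and Vegfa (-0.96), Ocln (-0.97), Cldn5 (-0.72) and Flt1 (-0.49) were below them. Expressed per endothelial marker RNA, the sealing genes Cldn5 and Ocln lay wholly below sham day 14 in TBI day 1, as did 42.1% of all tested genes. The scale therefore does not set these genes apart, and on the plain scale neither differed past the test. At day 14 against sham day 14, Ocln (0.51) and Pecam1 (0.36) were above the sham libraries (exact permutation p = 0.0286 for each, 10 genes tested, not adjusted); 13.1% of all tested genes lay wholly above on this scale and 0.559% below, where 0 of the 10 were. Vegfa (-0.40) and Flt1 (-0.48) had an exact permutation p of 0.0571.

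**Figure D3:**
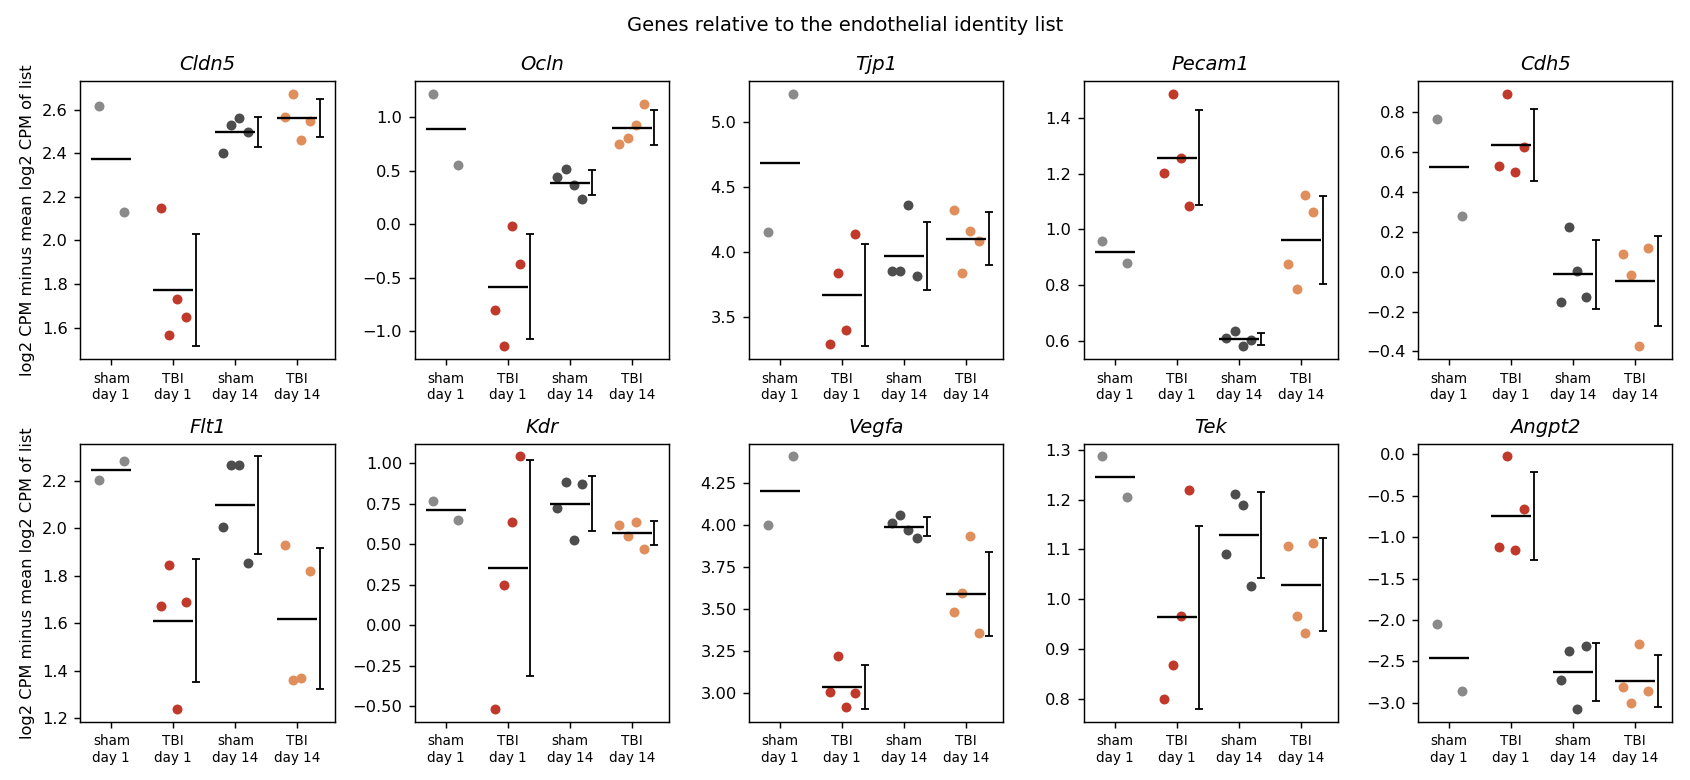
Log2 CPM of each of the 10 genes minus the mean log2 CPM of the endothelial identity list in the same library (vertical axes, which differ between panels), by group. Points are rats, horizontal bars are group means and vertical bars are SDs of the groups of 4. In TBI day 1, Angpt2 and Pecam1 lie above sham day 1 and sham day 14, and Vegfa, Ocln and Flt1 below both. Of all tested genes, 4.94% lie wholly above sham day 1 and 6.08% above sham day 14. The shares wholly below are 56.3% and 42.1%.

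Marker lists of the vessel wall are given beside these genes. Of 18 tested endothelial identity genes, 7 rose and 0 fell at day 1, with a median log2 difference of 0.75. Against sham day 14, TBI day 1 had 8 of the 18 higher and 1 lower, against 25% and 21% of all tested genes (edgeR). Of all tested genes, edgeR called 11.2% higher and 7.93% lower at day 1, and 4.07% higher and 0.365% lower at day 14. The largest were Sox7, an endothelial transcription factor (8.91-fold, from 2.81 to 5.71 CPM in sham to 27.0 to 55.9 CPM), and Vwf, which encodes von Willebrand factor (3.69-fold, adjusted p = 0.000858, edgeR). At day 14, 0 of the 18 were called in either direction by edgeR (2 lower at an unadjusted p under 0.05) and their median was -0.31, equal to that of the 10 genes. Pericytes and smooth muscle, the mural cells of vessels, had 4 of 15 genes called higher and 0 lower at day 1, led by Tagln (10.9-fold), a smooth muscle actin-binding protein, and Anpep (9.61-fold), an aminopeptidase of pericytes; 0 of 15 were called at day 14, or had an unadjusted p under 0.05. Anpep is also made by myeloid cells, whose markers were higher in the same libraries, and their part in its value was not tested. Summed over the list, mural genes stood at 219 and 424 CPM in sham day 1 and 585 to 836 CPM in TBI day 1. Tagln alone averaged 31.0 CPM in sham day 1 and 338 CPM in TBI day 1. Against sham day 14, TBI day 1 had 3 of the 15 mural genes called higher and 2 lower (edgeR). Their median log2 difference there was -0.23, with 10 of the 15 below 0. Among all tested genes, 25% were called higher and 21% lower in that comparison.

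**Figure D4:**
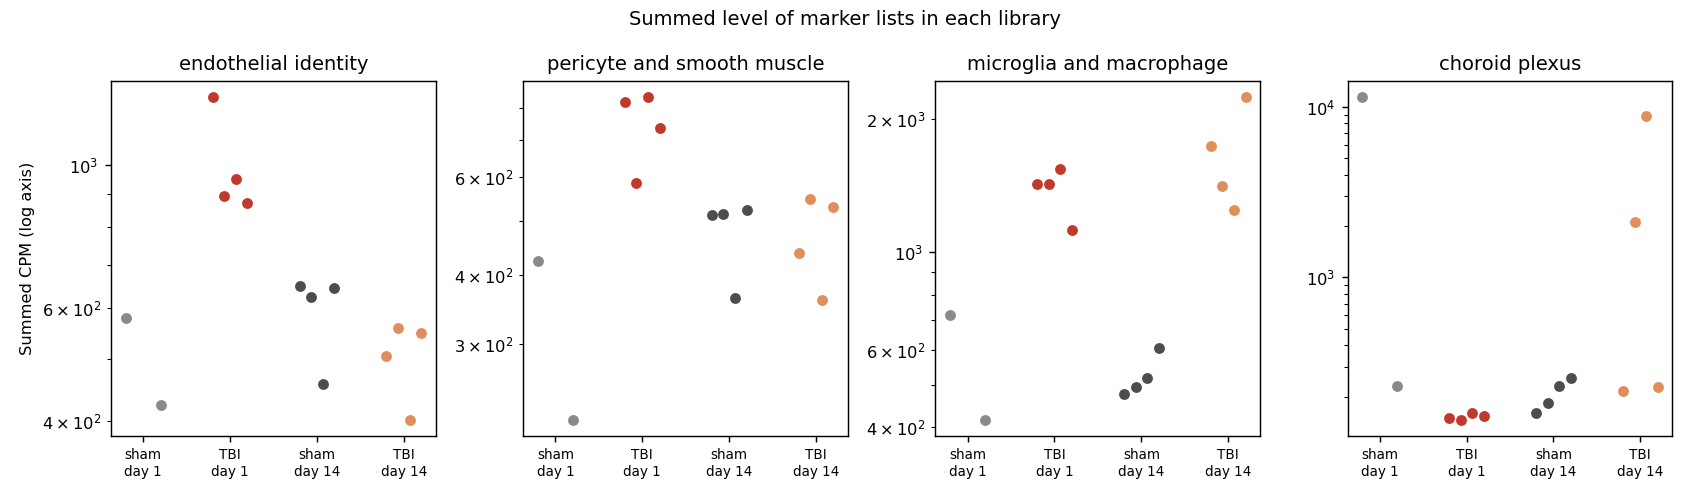
Summed CPM of the endothelial identity, pericyte and smooth muscle, microglia and macrophage, and choroid plexus marker lists in each library (vertical log axes), by group. The 4 TBI day 1 libraries have the highest endothelial sums (872 to 1274 CPM), and 3 libraries (11387, 2117 and 8856 CPM) stand apart in choroid plexus markers.

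Other genes of the same pathways were taken from lists, and those named are the called genes with the largest changes. Among all tested genes, 11.2% were called higher and 7.93% lower at day 1 (edgeR). Of 7 other genes of the angiopoietin pathway, 3 rose and 1 fell at day 1: Itga5, an integrin subunit that angiopoietin-2 can bind, rose 9.88-fold (adjusted p = 2.42e-05), Tnip2, a partner of Tie2 in damping NF-kB signaling, rose 2.92-fold (adjusted p = 0.000821), and Foxo1, the transcription factor that Tie2 signaling restrains and that activates Angpt2, fell to 0.601-fold (adjusted p = 0.0463) by edgeR. Their median log2 difference was 0.82. Against sham day 14 the median of the 7 genes in TBI day 1 was 0.07. Of these, 3 were higher and 0 lower, against 25% and 21% of all tested genes (edgeR). Foxo1 averaged 25 CPM in TBI day 1, 23.8 in sham day 14 and 41.6 in the pair of sham day 1 rats. Of 10 other genes of the VEGF family, Pgf, which encodes placental growth factor, a ligand of Flt1, rose 3.15-fold from 1.29 and 2.32 CPM to between 2.84 and 9.18 CPM (adjusted p = 0.0273, edgeR). The co-receptors Nrp1 and Nrp2, which are also made by neurons, fell to 0.392-fold and 0.434-fold (adjusted p = 0.00879 and 0.0408, edgeR). At day 14, 0 genes of either list were called by edgeR, with 3 of 7 angiopoietin genes higher and 1 of 10 VEGF genes in each direction at an unadjusted p under 0.05.

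Of 25 genes of tip cells and sprouting, 11 rose and 2 fell at day 1, with a median of 0.61. Against sham day 14, TBI day 1 had 8 of the 25 higher and 2 lower, with a median of 0.49 (edgeR). Of all tested genes, 25% were higher and 21% lower in that comparison. Against sham of the same day, 11.2% of all tested genes were higher and 7.93% lower at day 1 (edgeR). At day 14 these shares were 4.07% and 0.365%. Plaur, the urokinase receptor, rose 39.6-fold and Ccn1, a matrix protein that promotes angiogenesis, 18.6-fold, while Nr4a1, an immediate early gene of many cells, fell to 0.494-fold and S1pr1, a receptor that steadies endothelial junctions, to 0.676-fold (adjusted p between 0.000417 and 0.0389, edgeR). The Plaur fold rests on 0.216 and 0.231 CPM in the sham libraries, a handful of counts. Microglia and macrophage sums were higher in the same injured libraries, and their part in the Plaur rise was not tested. Ccn1 was at 1.56 and 1.94 CPM in sham day 1, 3.14 to 16.4 CPM in sham day 14 and 23.2 to 46.1 CPM in TBI day 1. S1pr1 averaged 149 CPM in TBI day 1, 148 in sham day 14 and 221 in the pair of sham day 1 rats. At day 14 Plaur was higher (6.80-fold, adjusted p = 0.0140) and Ccn2, a relative of Ccn1, lower (0.504-fold, adjusted p = 0.0412), 1 of 25 in each direction (edgeR). Of 14 genes of the hypoxia response, a known inducer of Vegfa, 1 rose and 0 fell at day 1. Against sham day 14, TBI day 1 had 8 of the 14 higher and 0 lower, and sham day 1 had 3 higher and 0 lower (edgeR). Among all tested genes, 25% were higher and 21% lower in TBI day 1, and 11.3% and 7.88% in sham day 1. The gene called against sham day 1 was Hmox1 (13.3-fold, adjusted p = 8.93e-06), which encodes heme oxygenase-1 and also responds to heme and oxidants; at day 14 Hmox1 (3.86-fold) and the hexokinase Hk2 (1.70-fold, adjusted p = 0.0423) were higher by edgeR. Vegfa itself was lower at that time.

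Junction and barrier genes moved in both directions. So did all tested genes, of which 11.2% were called higher and 7.93% lower at day 1 (edgeR). Of 19 other junction and adhesion genes, 2 rose and 4 fell at day 1, with a median of -0.10. The catenin gene Ctnna1 (1.65-fold) rose, and Cldn1 (0.159-fold) and Tjp3 (ZO-3, 0.530-fold) fell (adjusted p between 0.00121 and 0.0193, edgeR). Cldn1 is found in choroid plexus epithelium and meninges as well as in endothelium, and it stood at 11.2 and 16.1 CPM in the sham day 1 libraries, of which only 1 was rich in choroid plexus markers. Of 19 genes of barrier transport, 3 rose and 2 fell at day 1. Slc2a1, the glucose transporter GLUT1 of barrier endothelium, rose 2.16-fold (adjusted p = 0.0233) and the caveolar gene Cav2 2.45-fold (adjusted p = 0.00386), while the organic anion transporters Slc22a8 (0.335-fold, adjusted p = 0.0257) and Slco1c1 (0.493-fold, adjusted p = 0.0284) fell (edgeR). Slc22a8 is also a choroid plexus transporter, and its sham range of 20.6 to 79.0 CPM had its high end in the library rich in those markers. At day 14, Plvap, a component of fenestrated and leaky endothelium that mature barrier endothelium lacks, rose 2.81-fold, from between 1.68 and 2.39 CPM in sham to between 4.12 and 7.85 CPM (adjusted p = 0.00424, edgeR). Choroid plexus capillaries are fenestrated, and the highest Plvap values of their groups, 7.85 CPM in TBI day 14 replicate 3 and 7.17 CPM in sham day 1 replicate 1, were in libraries rich in choroid plexus markers. The TBI day 14 libraries without them had 5.11 and 4.12 CPM, also above every sham day 14 library. Slco2b1 rose 2.16-fold (adjusted p = 0.000244) and the transferrin receptor gene Tfrc fell to 0.564-fold (adjusted p = 0.00250, edgeR). Slco2b1 is made by microglia as well as endothelium, and the microglia sums were higher in the same libraries; that part was not tested. Of 12 genes of the Wnt pathway that maintains the barrier, 2 rose at day 1, the ligand gene Wnt7b (1.59-fold) and the co-receptor gene Tspan12 (1.55-fold), and 2 fell, the receptor gene Fzd4 (0.682-fold) and the feedback target Axin2 (0.722-fold), with adjusted p between 0.0261 and 0.0408 by edgeR. Axin2 was at 45.0 and 49.6 CPM in sham day 1, 28.7 to 39.4 CPM in TBI day 1 and 29.5 to 38.9 CPM in sham day 14. Fzd4 was at 25.8 and 38.1 CPM, 18.8 to 25.3 CPM and 24.0 to 26.3 CPM in the same groups. Both genes thus overlapped between TBI day 1 and sham day 14. At day 14, 0 of the 12 Wnt genes were called by edgeR, and 0 had an unadjusted p under 0.05. Of the 19 junction genes 0 were called, and 1 was lower at an unadjusted p under 0.05.

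**Figure D5:**
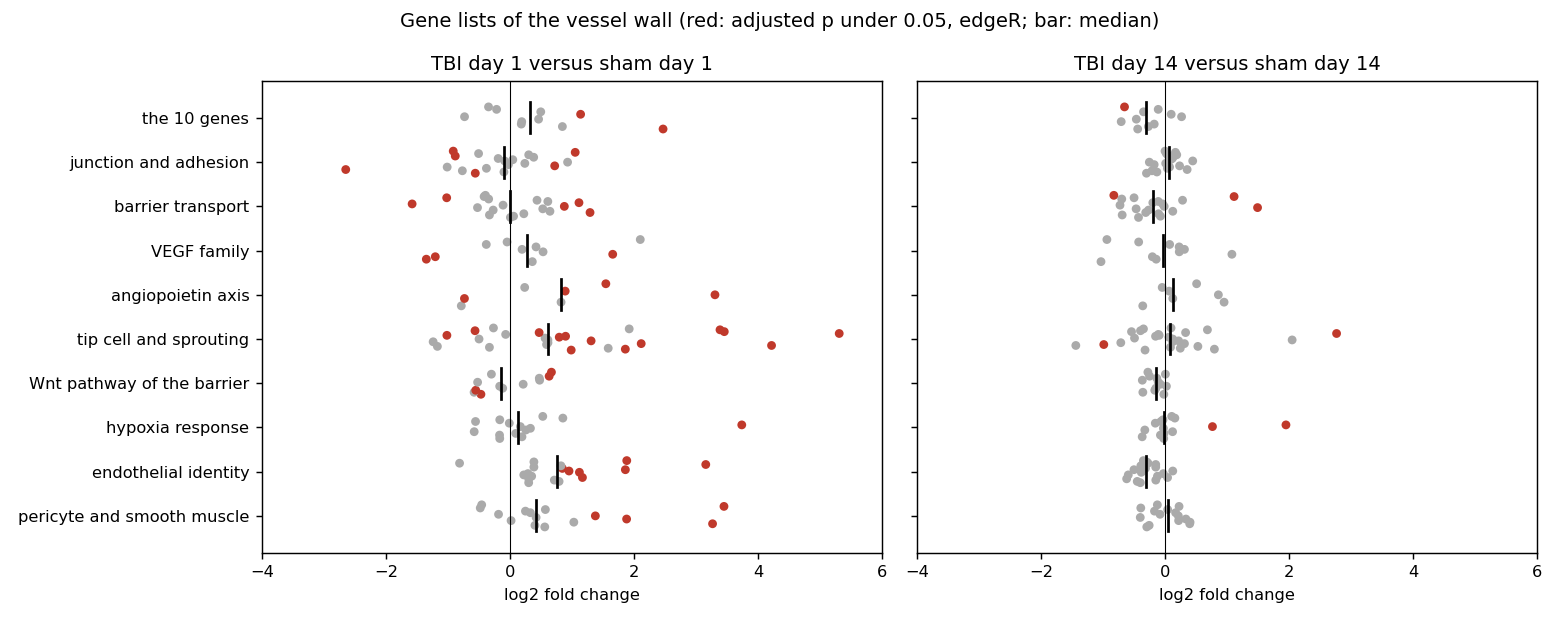
Log2 fold change (horizontal axis) of the 10 genes and of every tested gene of 9 lists, for TBI day 1 versus sham day 1 (left) and TBI day 14 versus sham day 14 (right). Each point is a gene, red where the adjusted p is under 0.05 in edgeR, and black bars are medians. On the left, 11 of 25 sprouting genes and 7 of 18 endothelial identity genes are called higher, against 11.2% of all tested genes. On the right, 1 and 0 are called higher, against 4.07%. For TBI day 1 against sham day 14, not drawn, 8 of 25 and 8 of 18 are called higher, against 25%.

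The remaining marker lists gave the following counts by edgeR at day 1: choroid plexus 0 higher and 13 lower of 17, microglia and macrophage 9 and 2 of 14, astrocyte 2 and 2 of 11, fibroblast and meninges 1 and 0 of 10, red cell and platelet 0 and 0 of 5, neuron 0 and 3 of 12, hippocampal subfield 0 and 4 of 10, and oligodendrocyte 0 and 5 of 10. At day 14, microglia and macrophage gave 13 higher of 14, and choroid plexus (Ttr) and astrocyte (Gfap) gave 1 each. The 3 libraries rich in choroid plexus markers entered these counts. Of all tested genes, edgeR called 11.2% higher and 7.93% lower at day 1, and 4.07% higher at day 14.

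Across the 14 libraries the genes whose log2 CPM followed each of the 10 most closely were sought among all tested genes. Pearson's r is given as a description, since the groups fall apart and the points share library and depth. Angpt2 was matched by Sec23b (0.968), Sox7 (0.968) and Fn1 (0.966), and Pecam1 by Sec23b (0.977) and Pstpip1 (0.966). For Cdh5 they were Nod2 (0.955), Arhgap18 (0.950) and Podxl (0.944), and for Tek they were Fgfr3 (0.923), Arhgap18 (0.922) and Cdh5 itself (0.909). Sox7 and Podxl belong to the endothelial identity list. Flt1 was matched by Gpr116 (0.918), which is the older name of the endothelial receptor gene Adgrf5, then by Utrn (0.914) and Clic5 (0.894), and Kdr by Enpep (0.876), Tm4sf1 (0.824) and Cdkn2b (0.820). Cldn5 was matched by Degs2 (0.927), Kif1c (0.917) and Kank3 (0.912), and Vegfa by Tango2 (0.883), Rhobtb3 (0.869) and Tpd52l1 (0.857). Ocln was matched by Maob (0.887), Kcng4 (0.868) and Aamdc (0.862), and Tjp1 by Fmr1 (0.948), Bmi1 (0.945) and Agps (0.941). When each library was expressed as its deviation from its group mean, the nearest gene stayed the same for 1 of the 10, Cldn5 (Degs2, r = 0.980). Within the set the closest pair over values was Angpt2 and Pecam1 (r = 0.942, and 0.738 over deviations from group means), and over deviations from group means it was Cdh5 and Tek (0.878).

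Some libraries were low or high in most of the 10 genes. Sham day 1 replicate 1 exceeded replicate 2 in 9 of 10 genes, the exception being Tjp1, and sham day 14 replicate 3 was the lowest of its group in 9 of 10 genes, again with Tjp1 as the exception. The summed endothelial markers followed the same order: 578 against 423 CPM in the sham day 1 libraries, and 457 CPM in sham day 14 replicate 3 against 622 to 647 CPM in the other 3. TBI day 14 replicate 3, with the lowest endothelial sum of all libraries (402 CPM), was lowest of its group in 6 of 10 genes. In TBI day 1 the lowest library was replicate 1, 2, 3 and 4 for 1, 2, 3 and 4 genes. Over deviations from group means Tjp1 correlated negatively with 8 of the 9 other genes, down to r = -0.658 with Ocln, and Kdr was near 0 with Flt1 (-0.0201) and Vegfa (0.0450).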

How the data were processed

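Per the labels and the methods of the study, the authors checked single-end 50-base reads of stranded mRNA libraries with FastQC 0.11.8, aligned them to rn5 (STAR 2.4.2a) and ran featureCounts 1.5.0 with UCSC gene annotation. The deposited counts are whole numbers per gene symbol, not normalized, and were used as deposited; the 14 count columns matched 14 samples by name. No replicate pair agreed within counting noise (chi-squared per degree of freedom 12.8 to 165). In R 4.3.3, edgeR 4.0.16 was used: TMM factors, filterByExpr, and the quasi-likelihood test from a model of the 4 group means, fitted to all 14 libraries together, with two-sided p-values adjusted by the Benjamini-Hochberg method over 12875 genes at 0.05. Log2 CPM used a prior count of 2. P-values measure the spread between rats. The alternatives were limma-voom 3.58.1, DESeq2 1.42.0, other scaling and filters, the replicate number as a block, other sample sets, marker scores as covariates and each library left out. Tools were checked on simulated data. Exact permutation tests used scipy 1.17.1, were two-sided and were not adjusted.

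The 10 genes and the 17 lists were chosen with earlier results of these data known. Genes named from a list are the 2 called genes with the largest and the 2 with the smallest log2 fold change in each comparison of TBI with sham of the same day, and for each of the 10 genes the 3 with the highest Pearson's r; from lists of other cell types, Ttr and others are named only where a value turns on them. Some genes that these rules cover are not reported here. H3K4me3 peaks were not analysed here. Promoters came from RefSeq (GRCr8). The methods text of the study gives 2 sham rats at day 14 and its results 4; the 4 labelled libraries were used.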

Additional observations from a re-analysis of the deposited data

Results flagged for a closer look

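Among 30 groups of 4 libraries tested for a library apart from the rest (10 genes in 3 groups), 2 had one, and chance gives about 1 in 20. Both belonged to sham day 14 replicate 3, with the lowest value of its group for Pecam1 (log2 CPM 4.30) and for Kdr (4.25). The same library was lowest for 9 of the 10 genes and had the lowest endothelial marker sum of the sham day 14 libraries (457 CPM).

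The effect of TBI differed between day 1 and day 14, by the interaction test in edgeR, for Angpt2, with a log2 effect larger at day 1 by 2.91 (adjusted p = 0.0108). Among genes named from the vessel lists, the log2 effect was also larger at day 1 for Ccn1 (5.66), Sox7 (3.31), Tagln (3.22), Anpep (2.87), Itga5 (2.44), Vwf (2.23), Hmox1 (1.79), Cav2 (1.60) and Ccn2 (1.58). It was lower at day 1 than at day 14 for Cldn1 (-3.00), Plvap (-2.02) and Slco2b1 (-1.53). The genes from the vessel lists had been named for their large called effects at day 1 or day 14 in the same libraries. A difference between the days is therefore partly built in by that choice. Of all tested genes, 2.24% were called in the first direction and 1.44% in the other (edgeR). The Cldn1 value rests in part on libraries rich in choroid plexus markers: it was 16.1 CPM in sham day 1 replicate 1 and 13.4 CPM in TBI day 14 replicate 3, each the highest of its group. Plvap was likewise highest of its group in these libraries (7.17 and 7.85 CPM). The part of that tissue in either difference was not tested.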

How the results depend on the processing

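Of the alternatives to the values of the 10 genes, 1166 were labelled the same, 50 passed the threshold anew, 62 no longer passed it, 31 changed direction and 9 moved. The same meant an unchanged direction and side of the threshold. For values relative to the endothelial list, against sham day 1 or with a library left out, it meant a shift below the pooled SD. There, moved meant a larger shift. The cause was not tested unless the alternative itself gives it. Shares of all tested genes under the alternatives are not given, so the counts below have no background. With 2 sham rats at day 1, depth limits little and the number of rats much: a lone sham library is assumed to vary like the other groups.

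At day 1 the count of genes higher, 2, was 1 with only the groups compared, 4 with all 6 sham samples as 1 group, 4 without the 3 libraries rich in choroid plexus markers (chosen after seeing the data), 0 with the endothelial score and 0 with the microglia score as covariate (the latter chosen after seeing the data), and 1 to 4 with each replicate left out. The count lower, 0, was 3 with the endothelial score and 0 to 1 with each replicate left out. At day 14 the count lower, 1, was 2 with DESeq2, 2 with the replicate number as a block, 2 with only the groups compared, 0 without the libraries rich in choroid plexus markers, 0 with the microglia score, and 0 to 2 with each replicate left out. For TBI day 1 against sham day 14, the count lower, 1, was 0 with at least 10 counts in every sample, with only the groups compared, without the libraries rich in choroid plexus markers and with the microglia score, 3 with the endothelial score, and 0 to 1 with each replicate left out. The count higher there, 3, was 0 with the microglia score and 3 to 4 with each replicate left out. Between the sham groups the count higher, 0, was 1 with DESeq2, the choroid plexus score, the endothelial score, the microglia score and without the libraries rich in choroid plexus markers, and 0 to 1 with each replicate left out. For TBI day 14 against TBI day 1, the count higher, 0, was 1 with DESeq2, only the groups compared and the microglia score, 2 with the endothelial score, and 0 to 1 with each replicate left out; the count lower, 7, was 2 with the endothelial score, 4 without the libraries rich in choroid plexus markers, and 5 to 7 with each replicate left out. There Tjp1 also lost its call with median-of-ratios factors (adjusted p = 0.0529), no filter on low counts (0.0540), only the groups compared (0.0667), the choroid plexus score (0.136) and the microglia score (0.0551), and Kdr with limma-voom (0.0656). For the difference between days, the count larger at day 1, 1, was 3 with DESeq2, 2 with the block, 0 with the endothelial score, 2 without the libraries rich in choroid plexus markers, 4 with the microglia score, and 1 to 4 with each replicate left out; the count larger at day 14, 0, was 2 with the endothelial score.

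Directions that changed at day 1 were, on the log2 scale, Cldn5 at -0.024 and Tjp1 at 0.081 with all 6 sham samples. With the endothelial score they were Cldn5 at -1.01, Tjp1 at 0.044, Cdh5 at -0.083, Flt1 at -0.47 and Tek at -0.14. With the microglia score they were Cldn5 at -0.70, Tjp1 at 0.14, Cdh5 at -0.23, Flt1 at -0.53, Kdr at -0.050 and Tek at -0.18. Ocln was at 0.021 without the libraries rich in choroid plexus markers. With each replicate left out, the day 1 values ran from -0.26 to 0.82 for Cldn5 (below 0 without sham day 1 replicate 2 or, at -0.13, TBI day 1 replicate 1), from -1.24 to 0.031 for Ocln (above 0 without sham day 1 replicate 1), from -0.43 to 0.034 for Tjp1 and from -0.050 to 0.47 for Flt1 (both of the latter without sham day 1 replicate 2). At day 14, Tjp1 was at 0.014 with the choroid plexus score and 0.020 without the libraries rich in those markers, Cldn5 at 0.18 and Cdh5 at 0.027 with the endothelial score, and Ocln at -1.31, Tjp1 at 0.29 and Pecam1 at -0.78 with the microglia score. Pecam1 ran from -0.017 to 0.15 with each replicate left out (below 0 without sham day 14 replicate 3). For TBI day 1 against sham day 14, Tek was at -0.066 with the endothelial score, and Cdh5 at -0.078 and Tek at -0.40 with the microglia score. For the difference between days, Cdh5 was at -0.11 with the endothelial score. The microglia sums of injured and sham rats did not overlap, so that covariate and the injury cannot be told apart. The endothelial sums of TBI day 1 overlapped those of no other group. The endothelial score and the group difference therefore cannot be told apart in comparisons that hold TBI day 1.

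Replicate numbers did not pair the samples: deviations from group means correlated from -0.348 to 0.243 (median 0.0339) over 18 pairs of libraries with the same number and from -0.430 to 0.348 over 54 pairs with other numbers. With the number as a block, Cdh5 at day 1 (log2 1.04, adjusted p = 0.0250) and Flt1 at day 14 (-0.73, adjusted p = 0.0176) passed in edgeR, Flt1 passed for the difference between days (1.08, adjusted p = 0.0376), and Kdr (-0.61, adjusted p = 0.0639) and Tjp1 (-0.35, adjusted p = 0.0517) lost their calls for TBI day 14 against TBI day 1.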
